A study of Mus musculus with 4 samples.

Results

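Early distal convoluted tubule (DCT) cells are the epithelial cells of the first stretch of the DCT, the segment that follows the thick ascending limb in the renal cortex. They were taken from all 4 libraries of the study as barcodes with at least 1000 genes detected and at most 50% of UMIs from mitochondrial genes. Of these, a member held at least 5 UMIs of Slc12a3 per 10000 UMIs of its barcode (CP10k), less than 10 CP10k of S100g, less than 40 CP10k of Slc12a1 and Umod together, and less than 5 CP10k of Slc34a1. The rule found 1792 cells among the 32407 barcodes that passed the quality limits, which were left of 48085 barcodes in the files. Because the members were chosen by these measured values, the levels of these 5 genes, and every difference between the members and other cells, are a description.

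The study profiled the renal cortex of male mice with droplet single-cell RNA-Seq that counts transcript 3′ ends with unique molecular identifiers (UMIs). Cortex of 2 or 3 mice was pooled before digestion, so that 1 library stood for each of 4 conditions: young (6 weeks) Tfebfl/fl mice, young Tfebfl/fl KAP mice, aged (24 months) Tfebfl/fl mice and aged Tfebfl/fl KAP mice. Lists of 4 values follow this order. All 4 groups carry the floxed Tfeb alleles, and the Tfebfl/fl KAP mice also carry KAP-Cre, a Cre driven by the promoter of kidney androgen-regulated protein, which acts almost only in the proximal tubule and there in its S3 segment. The early DCT is therefore not the segment in which Tfeb is deleted. With 1 library per condition there was no replicate, and no test across mice was possible. Intervals are exact 95% intervals that cover counting error only. A difference between libraries can come from the condition, from the mice pooled or from the handling of 1 library, and these cannot be told apart.

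The early DCT reabsorbs sodium chloride across its luminal membrane through the thiazide-sensitive Na-Cl cotransporter NCC, which is encoded by Slc12a3. NCC is switched on by the kinases WNK1 and WNK4 through SPAK, encoded by Stk39, and WNK4 is in turn marked for degradation by KLHL3 with the ubiquitin ligase scaffold CUL3. The same cells set the final magnesium content of the urine through the channel TRPM6 and hold the calcium buffer parvalbumin (Pvalb), whereas the late DCT and the connecting tubule reabsorb calcium with calbindin (Calb1) and S100G.

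The genes that the results turn on lie on mm10 (GENCODE vM21) as follows. Slc12a3 spans chr8:94329201-94366214 on the plus strand, Pvalb chr15:78191114-78206400 on the minus strand, Trpm6 chr19:18749983-18892511 on the plus strand, Wnk4 chr11:101260567-101277409 on the plus strand and Klhl3 chr13:58000228-58113592 on the minus strand. Pigr lies at chr1:130826684-130852249 on the plus strand, Kl at chr5:150952607-150993817 on the plus strand and Lhx1 at chr11:84518284-84525535 on the minus strand. All 8 are protein-coding genes. The 250 bases before the start of Slc12a3, which defines the cells, of Pvalb, a marker that was lower with age, and of Pigr, which was higher with age, are shown 5′ to 3′ on the coding strand from RefSeq (GRCm38.p6), so that the 3 starts can be compared. Capitals mark matches to short motifs that were searched on both strands. The motifs were CACGTG, the E-box that is also the core of the element bound by MiT/TFE factors, and TATAAA of the TATA box. The others were TGACGT from the cAMP response element and GTTAAT, the HNF1 half-site.
Slc12a3, chr8:94328958-94329207, plus strand: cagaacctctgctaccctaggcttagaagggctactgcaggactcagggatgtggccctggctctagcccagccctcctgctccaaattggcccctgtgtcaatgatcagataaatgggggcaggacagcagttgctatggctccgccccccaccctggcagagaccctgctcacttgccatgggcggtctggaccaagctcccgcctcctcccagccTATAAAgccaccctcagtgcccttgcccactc
Pvalb, chr15:78206401-78206650, minus strand: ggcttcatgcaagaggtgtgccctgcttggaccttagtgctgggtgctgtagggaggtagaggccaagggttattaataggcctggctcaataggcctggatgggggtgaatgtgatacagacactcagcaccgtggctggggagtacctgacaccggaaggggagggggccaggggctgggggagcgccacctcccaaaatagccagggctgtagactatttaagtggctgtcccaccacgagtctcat
Pigr, chr1:130826434-130826683, plus strand: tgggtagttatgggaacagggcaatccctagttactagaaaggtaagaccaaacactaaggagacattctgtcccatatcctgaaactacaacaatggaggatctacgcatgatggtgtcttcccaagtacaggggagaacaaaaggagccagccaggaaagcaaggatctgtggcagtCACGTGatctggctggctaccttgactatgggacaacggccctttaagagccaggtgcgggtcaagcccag
The Slc12a3 window holds TATAAA, 32 bases before the RefSeq start, as do 12.4% of 32851 promoter windows of this length. This window ends at 94329207, past the GENCODE start of Slc12a3 at 94329201, because the annotations differ in the start. The Pigr window holds CACGTG 71 bases before the start, as do 6.02% of windows. The Pvalb window shown holds none of the motifs searched, of which TGACGT is in 6.47% and GTTAAT in 6.43% of windows. Pvalb has another RefSeq start, whose window (chr15:78204238-78204487) is not shown and holds none of them either. These matches describe the sequence and are not shown to be bound.

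The 4 libraries gave 430, 407, 408 and 547 early DCT cells, which was 3.90% (95% exact binomial interval 3.55 to 4.28), 4.81% (4.36 to 5.28), 6.81% (6.19 to 7.48) and 7.89% (7.27 to 8.55) of their kept barcodes. The share was higher in both aged libraries than in both young ones. Shares are of all cells captured, so that a larger share of early DCT cells and a smaller share of other cells cannot be told apart. The cells held 4695058, 5036863, 5582847 and 6887645 UMIs in total, with a median per cell of 10621, 12204, 13377 and 11342 UMIs and of 2767, 2852, 3409 and 3109 genes. Mitochondrial genes took a median of 26.9, 25.6, 22.2 and 22.8% of UMIs per cell, and were lower in both aged libraries. No member barcode was shared between libraries.

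Of the 4565 kept barcodes with at least 5 CP10k of Slc12a3, the limit on S100g alone removed 414, 169, 248 and 307, which are called late DCT cells below. The limit on Slc12a1 and Umod alone removed 408, 267, 234 and 254, and that on Slc34a1 alone 77, 52, 36 and 56. Just inside the Slc12a3 limit, 15, 8, 4 and 10 members had between 5 and 10 CP10k, the closest at 5.06, 5.18, 6.99 and 5.66 CP10k. Just outside it, 147, 73, 108 and 77 barcodes had Slc12a3 above 0 but below 5 CP10k, the closest at 4.85, 4.99, 4.92 and 4.91 CP10k. On the S100g limit, 52, 10, 18 and 16 members had 5 to 10 CP10k, and 48, 5, 17 and 11 barcodes outside had 10 to 20 CP10k. The limit on Slc12a1 and Umod cut through a denser range, with 170, 155, 125 and 177 members at 20 to 40 CP10k and 124, 101, 104 and 104 barcodes at 40 to 60 CP10k. Median Pvalb on the inner side of that limit was 43.5, 38.6, 14.2 and 10.8 CP10k and on the outer side 47.8, 36.1, 22.3 and 11.9 CP10k.

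The label early DCT was set against the markers of the segment. Summed over the members of each library and given as CPM (counts per 1000000 UMIs of the members), Slc12a3 was at 6116, 6406, 7407 and 7061 CPM, against 5.57 to 6.09 CPM in proximal tubule cells. Trpm6 was at 192, 234, 229 and 265 CPM, Wnk4 at 328, 325, 382 and 381 CPM and Klhl3 at 371, 404, 646 and 623 CPM. Over all other kept barcodes of the same library, the log2 ratio of CPM was 3.97 to 4.63 for Pvalb, 3.33 to 3.79 for Trpm6, 2.92 to 3.41 for Klhl3 and 1.91 to 2.41 for Wnk4. All 5 markers were higher in the members than in the other kept barcodes of each library. For Slc12a3 this follows from the rule, as does its contrast with proximal tubule cells, which were chosen with Slc12a3 below the limit. Pvalb, Trpm6, Klhl3 and Wnk4 are not genes of the rule. Ranked by the lowest of the 4 libraries' ratios among genes with a mean of at least 50 CPM, Pvalb was the first, followed by Lrrc52, Slc12a3, Gm15848, Uroc1, Trpm6, Sall3, Ptgfr, Cables1, Rab27a, Cwh43, Abca13, Klhl3, Ank2 and Lhx1. The median Slc12a3 per cell was 60.1, 60.2, 73.0 and 67.2 CP10k, and the medians of Slc12a1 and Slc34a1 were 0 in all 4 libraries. These are genes of the rule.

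Markers of other cell types were present at lower levels than Slc12a3. The connecting tubule list, which holds Calb1 and Klk1, genes that DCT cells also express, stood at 3735, 5204, 3861 and 4341 CPM, and the red blood cell list at 499, 540, 0 and 702 CPM. Summed CPM of the marker lists were 308, 122, 133 and 231 for endothelium, 173, 46.9, 18.99 and 45.6 for podocytes, 446, 215, 268 and 176 for principal cells and 317, 365, 596 and 358 for the proximal tubule, where Gpx3 (205, 210, 400 and 296 CPM) was the most abundant gene. The thick ascending limb list stood at 1679, 1672, 1504 and 1601 CPM, mostly from Umod, and the immune list at 39.0, 113, 21.5 and 75.5 CPM. The markers of endothelium, podocytes and principal cells were highest in the library of young Tfebfl/fl mice. They sat in few cells, since 44, 36, 25 and 41 members (10.2, 8.85, 6.13 and 7.50%) held at least 10 CP10k of the markers of another type, 17, 9, 8 and 25 of them of endothelium. These cells had a median Slc12a3 of 20.2, 25.3, 56.1 and 40.1 CP10k, against 62.1, 62.6, 74.1 and 69.5 CP10k in the other members. Scrublet called 14, 21, 12 and 16 members doublets. The libraries also differed in the correction for background RNA that the authors applied, which left entries of the matrix at an explicit 0. Such entries were 2.90, 12.5, 9.41 and 12.9% of all entries, and S100g, a gene of the rule, was set to 0 in 29.5, 94.6, 81.6 and 90.7% of members. The correction of the young Tfebfl/fl library was thus the lightest.

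**Figure D1:**
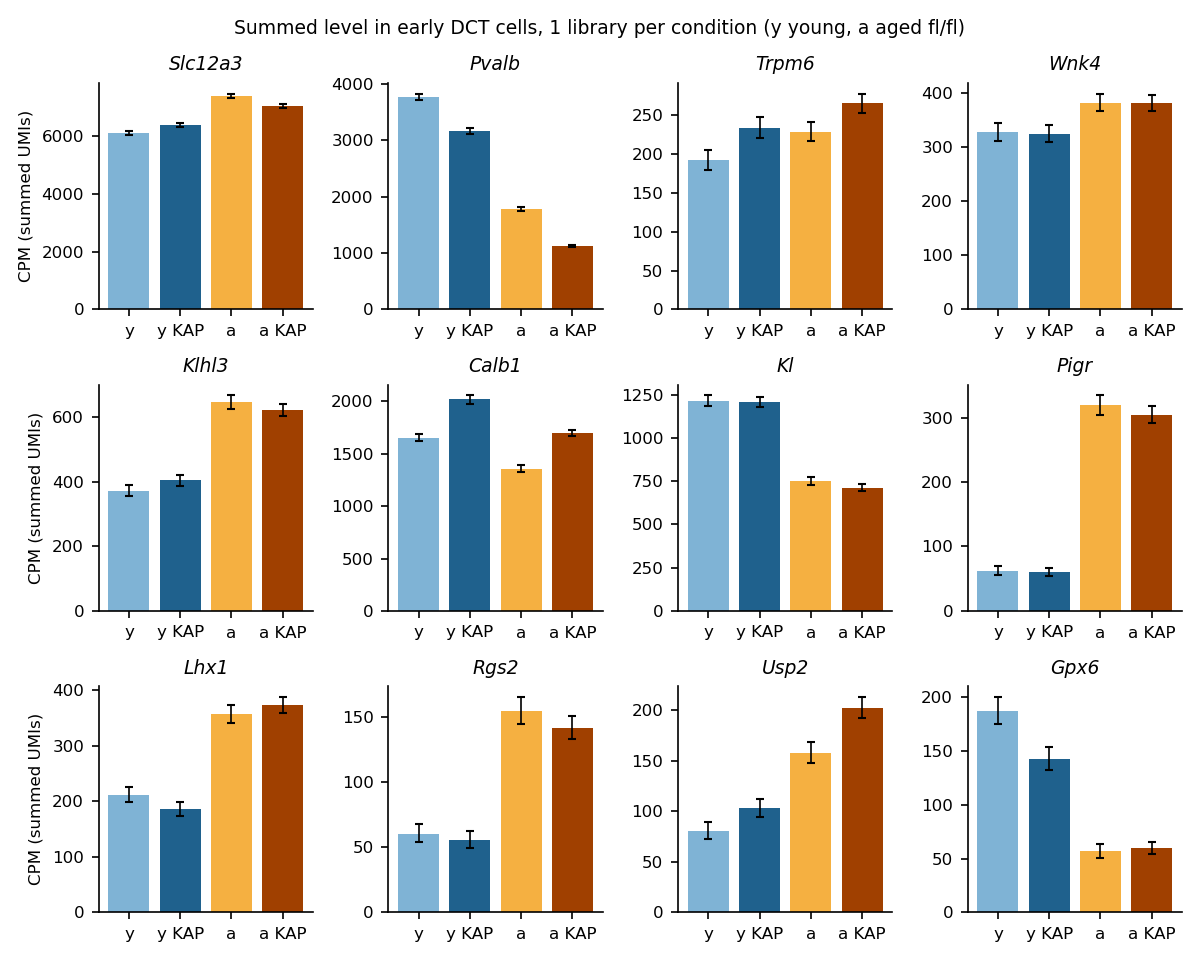
Level of 12 genes in early DCT cells, in CPM (linear axis from 0) by library, with bars for the summed level and whiskers for the exact 95% Poisson interval. Slc12a3 lay between 6116 and 7407 CPM, Pvalb was lower and Klhl3, Lhx1, Rgs2, Usp2 and Pigr were higher in both aged libraries, and Kl and Gpx6 were lower in both aged libraries.

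Age was compared within each genotype, as the log2 ratio of CPM in aged over young mice. The 2 age comparisons share no library with each other, but each shares its libraries with the genotype comparisons further on. A gene was counted as different when its ratio passed 1.5-fold and its mean over the pair of libraries was at least 20 CPM. By that rule 383 of 5533 genes (6.92%) were higher and 132 (2.39%) lower in aged than in young Tfebfl/fl mice, and 368 of 5365 (6.86%) were higher and 90 (1.68%) lower in aged than in young Tfebfl/fl KAP mice. The median log2 ratio of all genes was 0.117 and 0.104. Scaling the libraries by TMM factors in place of total UMIs moved all ratios by -0.124 and -0.175, and took the counts to 187 higher and 221 lower and to 141 higher and 182 lower. The share of higher genes among those past 1.5-fold went from 74.4 to 45.8% and from 80.3 to 43.7%. A ratio within this shift of 0, such as that of Slc12a3 in Tfebfl/fl KAP mice, has no direction that holds under both scalings. Of 5466 genes, both aged libraries lay above both young ones in 41.9% and below in 15.8%. The gap between the nearest aged and young library was at least 1.5-fold in 80 genes above (1.46%) and 30 below (0.549%), and under TMM factors in 23 above and 60 below.

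Among the genes of sodium chloride transport, Slc12a3 itself differed little with age, with log2 ratios of 0.28 in Tfebfl/fl and 0.14 in Tfebfl/fl KAP mice. Klhl3, the adaptor that presents WNK4 for degradation, was the member of its pathway that passed 1.5-fold in the same direction in both genotypes. Its log2 ratio was 0.80 (0.72 to 0.88) in Tfebfl/fl and 0.62 (0.55 to 0.70) in Tfebfl/fl KAP mice, but 0.67 and 0.45 under TMM factors, where the second no longer passed. Both aged libraries lay above both young ones. It was also higher with age in late DCT cells, at 321, 266, 562 and 465 CPM. Its target Wnk4 had ratios of 0.22 and 0.23. Wnk1, which encodes the other kinase, was at 3238, 3036, 3182 and 3522 CPM, and Stk39, which encodes SPAK, at 121, 117, 116 and 113 CPM. Counts per gene do not tell apart transcripts of Wnk1 that differ in their start. Cab39l, a cofactor of SPAK, was at 62.8, 72.1, 89.6 and 85.1 CPM. Sgk1, the aldosterone-induced kinase, was at 80.1, 31.6, 34.8 and 69.8 CPM, past 1.5-fold lower with age in Tfebfl/fl (-1.20) and higher in Tfebfl/fl KAP mice (1.15). Of the list of 16 genes of NCC and its kinases, 13 were measured, and both aged libraries were above both young ones in 7 (Klhl3, Cab39l, Wnk4, Slc12a3, Oxsr1, Nedd4l and Cul3) and below in 1 (Stk39). The median log2 ratio of the list, 0.080 and 0.141, was near that of all genes, and under TMM factors it was -0.045 and -0.034, with 3 members above and 4 below. Of all genes 41.9% lay above and 15.8% below by total UMIs, and 23.6% and 32.7% under TMM factors, and these shares hold as the background of the age counts that follow.

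Chloride and potassium leave the cell across the basolateral membrane, and 4 genes of that route lay higher in both aged libraries (2 of the list under TMM factors), 3 of which are given here. That is 4 of 9 measured, near the share of 41.9% among all genes. Bsnd, the barttin subunit of chloride channels, was at 53.9, 61.4, 83.8 and 68.2 CPM (0.64 and 0.15). The potassium channel subunits Kcnj10 and Kcnj16 were at 191, 191, 242 and 212 CPM and at 242, 261, 338 and 314 CPM. The differences were larger in Tfebfl/fl than in Tfebfl/fl KAP mice for each of these 3 genes, a difference that was not tested. Fxyd2, a regulator of sodium transport, was lower in both aged libraries (10231, 10625, 8561 and 8532 CPM). Of 11 genes of the basolateral list, 9 were measured, 4 lay above and 1 below with age, and the medians of 0.241 and -0.148 differed in sign. Under TMM factors 2 lay above and 4 below.

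Magnesium handling showed no common direction. Trpm6, the luminal magnesium channel, had log2 ratios of 0.25 and 0.18 with age, and its relative Trpm7 was at 495, 465, 651 and 602 CPM (0.39 and 0.37). Lower in both aged libraries were Egf, a magnesium-regulating hormone made by the distal tubule, at 2411, 2102, 1862 and 1636 CPM (-0.37 and -0.36), and Pcbd1, a transcriptional coactivator, at 374, 445, 287 and 325 CPM (-0.38 and -0.45). Of the 15 genes of the list, 8 were measured, with 3 above, Trpm7 and Slc41a1 among them, and 3 below (Fxyd2, Pcbd1 and Egf), where 41.9% of all genes lay above and 15.8% below. Under TMM factors 2 lay above and 3 below. The medians were 0.213 and -0.291.

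Pvalb, the calcium buffer that marks the early DCT, was lower with age in both genotypes. It was at 3772, 3169, 1784 and 1125 CPM. Both aged libraries lay below both young ones, and within each age the KAP library was the lower. The log2 ratio with age was -1.08 (-1.12 to -1.04) in Tfebfl/fl and -1.49 (-1.53 to -1.45) in Tfebfl/fl KAP mice. The KAP libraries differed from their controls by -0.25 (-0.28 to -0.22) in young and -0.66 (-0.71 to -0.62) in aged mice. A Pvalb UMI was found in 98.4, 96.6, 86.8 and 72.9% of cells, and counts of the gene had been set to 0 by the background correction in a further 0.233, 1.97, 5.39 and 10.1%. Thinned to 2000 UMIs per cell, the share was 96.9, 94.1, 75.4 and 58.8%, against 3.45, 0.38, 0.14 and 0% in thinned proximal tubule cells, which should lack the gene. Without thinning, proximal tubule cells stood at 11.8, 1.37, 0.92 and 0%. The order of the 4 libraries was thus the same for the level and for the share of cells. Late DCT cells gave 1267, 482, 603 and 186 CPM, and thick ascending limb cells 74.7, 43.0, 29.3 and 12.9 CPM, so that the value in aged Tfebfl/fl KAP mice was the lowest in each of the 3 cell types. The share of proximal tubule cells with a Pvalb UMI had the same order as the 4 libraries of early DCT cells, and the part of background RNA in these ratios was not tested.

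The Pvalb difference was set against position along the segment with Calb1, which climbs towards the late DCT. Cells with less than 5 CP10k of Calb1 were 173, 176, 220 and 300 in number, or 40.2, 43.2, 53.9 and 54.8% of members, more in both aged libraries. The background correction had set Calb1 to 0 in 4.65, 21.13, 18.14 and 23.03% of members, and its part in the size of this band was not tested. In the cells of this band Pvalb was at 3216, 2437, 1283 and 527 CPM. Between 5 and 20 CP10k of Calb1 it was at 3869, 3462, 1975 and 1293 CPM, and from 20 CP10k up at 4392, 3773, 2632 and 1957 CPM. Pvalb was lower with age in each band, and the more so the less Calb1 the cells held. The log2 ratio in the lowest band was -1.33 (-1.39 to -1.26) and -2.21, and in the highest -0.74 (-0.80 to -0.68) and -0.95 (-1.002 to -0.89). Spearman's rho of Pvalb with Calb1 over the cells of a library was 0.25, 0.36, 0.33 and 0.55 (430, 407, 408 and 547 cells). With Umod, a gene of the thick ascending limb list, the rho of Pvalb was 0.31, 0.39, 0.15 and 0.32, larger than with Calb1 in both young libraries. Pvalb and Slc12a3 had a rho of 0.04, 0.07, -0.04 and 0.02. Cells of 1 library share its depth and pool, and these values are descriptions.

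**Figure D2:**
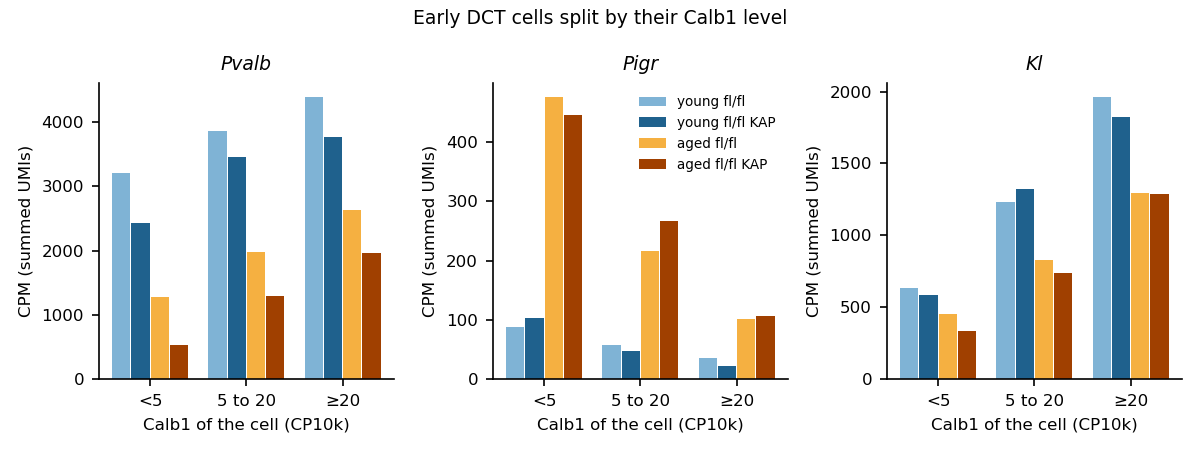
Level of Pvalb, Pigr and Kl in early DCT cells, in CPM (linear axis), in 3 bands of Calb1 per cell (under 5, 5 to 20 and at least 20 CP10k), with 1 bar per library. In the lowest band Pvalb was at 3216 CPM in young Tfebfl/fl and 527 CPM in aged Tfebfl/fl KAP mice, and in the highest band at 4392 and 1957 CPM.

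The Pvalb difference was also measured in subsets of the members. The 5 cells with the most Pvalb held 3.47, 4.02, 5.77 and 8.06% of its UMIs. Among cells with at most 20% mitochondrial UMIs the age ratios were -1.15 and -1.90, and among the rest -1.03 and -1.29. Without the members that carried markers of another type, they were -1.13 and -1.49. Members without any Pvalb UMI numbered 7, 14, 54 and 148, or 1.63, 3.44, 13.2 and 27.1%. They held a median of 1975, 5486.5, 13216 and 9505.5 UMIs, against 10727, 12269, 13449 and 12325 in cells with Pvalb. In young Tfebfl/fl mice, levels in these 7 cells rest on 49624 UMIs. When only cells with a Pvalb UMI were taken, the age ratios were -0.89 and -1.17, lower with age also among positive cells. The shares of members in which the correction had set Pvalb to 0, given above, followed the same order as the shares without a UMI, and their part in them was not tested. The cells without a UMI differed from the rest in other genes. Klk1, a kallikrein of the late DCT and connecting tubule, was at 7154, 6231, 6957 and 4481 CPM in them and at 1235, 2396, 1155 and 1138 CPM in cells with Pvalb. Hsd11b2, which shields the mineralocorticoid receptor from corticosterone, was at 947, 1253, 380 and 139 CPM in cells without Pvalb. In cells with Pvalb it was at 103, 23.6, 47.0 and 37.2 CPM. Calb1 and Kl, which were also higher in late than in early DCT cells, went the other way. Calb1 was at 0, 598, 365 and 402 CPM in cells without Pvalb and at 1673, 2055, 1509 and 2070 CPM in cells with it. Kl was at 383, 782, 535 and 465 CPM without and at 1224, 1219, 785 and 782 CPM with Pvalb. S100g, the gene of the rule that parts late from early DCT cells, was set to 0 by the background correction in most members of 3 libraries, as given above, and its part in the Pvalb difference was not tested.

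Pigr, which encodes the receptor that carries dimeric immunoglobulin A across epithelia, was the opposite of Pvalb. It was at 62.6, 60.2, 320 and 305 CPM, so that the aged libraries stood apart from the young ones and the genotypes did not. The log2 ratio with age was 2.35 (2.17 to 2.53) in Tfebfl/fl and 2.34 (2.17 to 2.52) in Tfebfl/fl KAP mice, and KAP against control gave -0.06 in young and -0.07 in aged mice. The UMIs, 294, 303, 1784 and 2098, came from 135, 116, 261 and 344 cells, or 31.4, 28.5, 64.0 and 62.9%. Thinned to 2000 UMIs the share was 10.4, 9.65, 35.2 and 32.2%, and in proximal tubule cells, which also express the gene and are no negative control for it, 3.81, 2.93, 14.2 and 8.94%. Pigr was higher with age in the other tubule cells too, with 28.7, 17.2, 137 and 69.1 CPM in proximal tubule, 7.67, 12.3, 58.9 and 45.2 CPM in thick ascending limb and 8.77, 1.58, 35.8 and 59.3 CPM in late DCT cells. Connecting tubule cells had 1.06, 1.01, 3.65 and 3.91 CPM. The level in early DCT cells was the highest of the 5 cell types in each library. Within the early DCT it was higher where Calb1 was low, at 87.5, 103, 476 and 446 CPM in the band under 5 CP10k against 35.1, 21.9, 101 and 106 CPM in the band from 20 CP10k up.

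**Figure D3:**
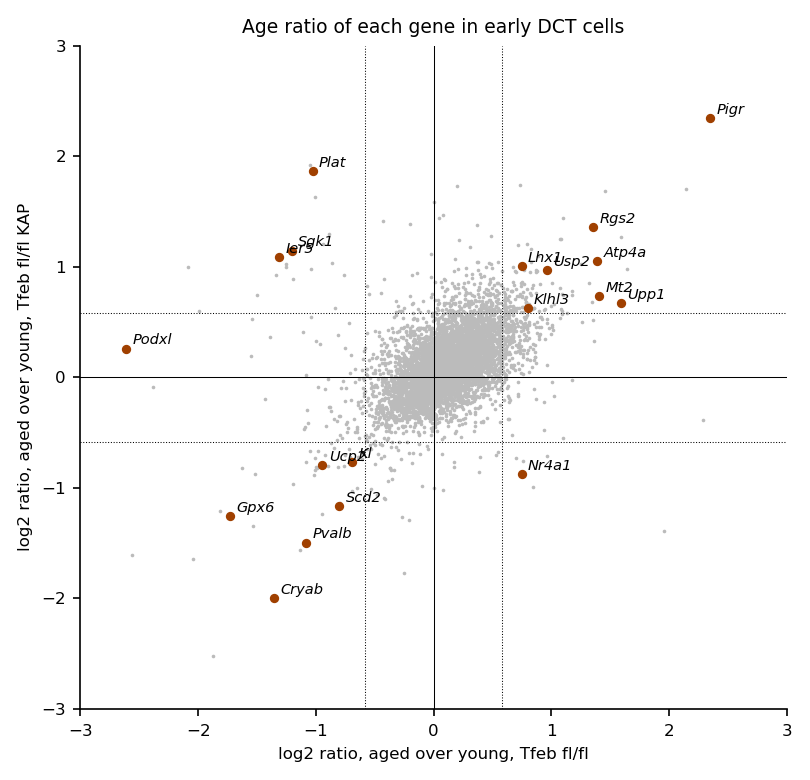
Log2 ratio of CPM in aged over young early DCT cells, in Tfebfl/fl mice (x axis) and Tfebfl/fl KAP mice (y axis), with 1 point per gene, dotted lines at 1.5-fold, and axes that end at -3 and 3 and leave out genes beyond them. Pigr lies at the upper right with 2.35 and 2.34, and Pvalb (-1.08 and -1.49) and Gpx6 (-1.73 and -1.26) at the lower left.

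Among the genes of calcium handling, Calb1 and S100g mark the late and Pvalb the early DCT. Calb1 was at 1655, 2019, 1358 and 1699 CPM, lower with age in each genotype (-0.29 and -0.25) and higher in each KAP library than in its control (0.29 and 0.32), and it was far below the 12321, 11985, 9910 and 9196 CPM of late DCT cells. Slc8a1, the sodium-calcium exchanger, was at 574, 654, 506 and 687 CPM. Vdr, the vitamin D receptor, was at 116, 170, 205 and 189 CPM. Kl, which encodes the FGF23 co-receptor klotho, was lower in both aged libraries, at 1215, 1208, 752 and 712 CPM. Its log2 ratios were -0.69 (-0.75 to -0.63) and -0.76 (-0.82 to -0.71), past 1.5-fold in both genotypes. Kl climbed with Calb1, and within the bands of Calb1 from low to high its ratios were -0.48, -0.57 and -0.60 in Tfebfl/fl and -0.81, -0.84 and -0.50 in Tfebfl/fl KAP mice, lower with age in each band but past 1.5-fold in 1 of 3 and 2 of 3. Late DCT cells (3501, 3143, 2236 and 2336 CPM) and connecting tubule cells (2441, 2407, 929 and 1051 CPM) held more Kl and were also lower with age. Of the 10 genes of the calcium list, 8 were measured, 2 lay above (Vdr and Atp2b4) and 1 below (Kl), against 41.9% and 15.8% of all genes, with medians of 0.008 and 0.038, and none lay above and 2 below under TMM factors. In the list of the aldosterone response, 9 of 12 genes were measured and 4 lay above with age (Nr3c2, Fkbp5, Scnn1b and Scnn1a), near the 41.9% of all genes, and 1 under TMM factors. Nr3c2, the mineralocorticoid receptor, was at 20.9, 21.6, 32.6 and 27.0 CPM, and Scnn1a, a subunit of the epithelial sodium channel, at 191, 236, 243 and 250 CPM.

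Transcription factors of the distal tubule were mostly higher in the aged libraries. Of 17 listed, 11 were measured over the 4 libraries, and both aged libraries were above both young ones in 8 and below in none, also under TMM factors. Of all genes 41.9% lay above and 15.8% below by total UMIs, and 23.6% above and 32.7% below under TMM factors. The median log2 ratio was 0.484 and 0.401, against 0.117 and 0.104 for all genes, and 0.423 and 0.226 under TMM factors. Tfap2b, which is needed for distal tubule development, was at 133, 155, 255 and 235 CPM (0.94 and 0.61), and Emx1 at 211, 214, 334 and 324 CPM (0.66 and 0.60). Gata3 was at 71.4, 58.4, 104 and 95.1 CPM (0.55 and 0.70), Pou3f3 at 124, 118, 191 and 160 CPM (0.62 and 0.44) and Sall3 at 71.8, 87.0, 129 and 107 CPM (0.84 and 0.30). In each of these the aged and young libraries did not overlap. Lhx1, a factor of nephron patterning and one of the 15 genes highest over other cells, was at 212, 186, 357 and 374 CPM, with ratios of 0.75 and 1.01. Late DCT cells gave it at 95.6, 84.5, 227 and 200 CPM. The list of 16 early DCT genes had no such common direction, with 6 of 14 measured genes above (Stk32b, Sgms2, Trpm7, Kcnj10, Ptgfr and Tmem52b) and 5 below (Pvalb, Acss3, Egf, Col5a2 and Umod), and 3 above and 5 below under TMM factors.

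Other genes past 1.5-fold in both genotypes were of mixed function. Higher in both aged libraries were Rgs2, a brake on G protein signalling, at 60.5, 55.4, 155 and 142 CPM (1.36 and 1.36), and Atp4a, a proton pump subunit, at 83.3, 93.3, 218 and 193 CPM (1.39 and 1.05). Usp2, a clock-controlled deubiquitinase, was at 80.9, 103, 158 and 203 CPM, with age ratios of 0.96 and 0.97, and Ier3 at 426, 451, 854 and 813 CPM (1.004 and 0.85). The metallothionein Mt2 was at 197, 271, 521 and 452 CPM (1.40 and 0.74), and Upp1, uridine phosphorylase, at 87.5, 109, 264 and 174 CPM (1.59 and 0.67). The young and aged libraries did not overlap in any of these 6 genes, but under TMM factors Mt2 (0.56) and Upp1 (0.50) no longer passed 1.5-fold in Tfebfl/fl KAP mice. Lower in both aged libraries were Gpx6, a glutathione peroxidase, at 187, 143, 56.6 and 59.7 CPM (-1.73 and -1.26), and Scd2, a fatty acid desaturase, at 576, 632, 331 and 282 CPM (-0.80 and -1.17). Ucp2, a mitochondrial carrier, was at 150, 162, 77.9 and 93.4 CPM (-0.94 and -0.80), and Ccnd1, cyclin D1, at 327, 298, 193 and 171 CPM (-0.76 and -0.80). Gpx6 was also a gene that parts early from late DCT cells, with a log2 ratio over late DCT cells of 1.85 to 2.15 across the libraries.

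Mitochondrial genes were split between the nuclear and the mitochondrial genome. Of 75 nuclear genes of oxidative phosphorylation, both aged libraries were below both young ones in 36 and above in none, with medians of -0.077 and -0.170, where 15.8% of all genes lay below and 41.9% above. Under TMM factors 48 lay below and none above, where 32.7% of all genes lay below and 23.6% above. None passed 1.5-fold in either genotype. Of 24 measured citrate cycle genes, 13 lay below with age and 1, Suclg1, above, with medians of -0.110 and -0.162, and 23 lay below and none above under TMM factors. Of the 13 protein-coding genes of the mitochondrial genome, 7 lay below and 2 above, and 11 and 2 under TMM factors. The largest difference was that of mt-Nd6, the subunit on the other strand, at 53.5, 44.3, 24.4 and 14.95 CPM (-1.13 and -1.57). Other subunits of complex I went opposite ways, with mt-Nd1 at 13898, 13817, 7326 and 8498 CPM (-0.92 and -0.70) and mt-Nd4l at 1108, 1270, 2030 and 2487 CPM (0.87 and 0.97). The last 2 genes had the same direction with age in proximal tubule, thick ascending limb, late DCT and connecting tubule cells, so that the difference was not particular to the early DCT. Of 47 listed genes of fatty acid degradation 27 were measured, 12 above and 7 below with age, with medians of 0.155 and 0.043. Under TMM factors 7 lay above and 9 below, with medians of 0.031 and -0.132, and the count above by total UMIs was near the 41.9% of all genes.

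**Figure D4:**
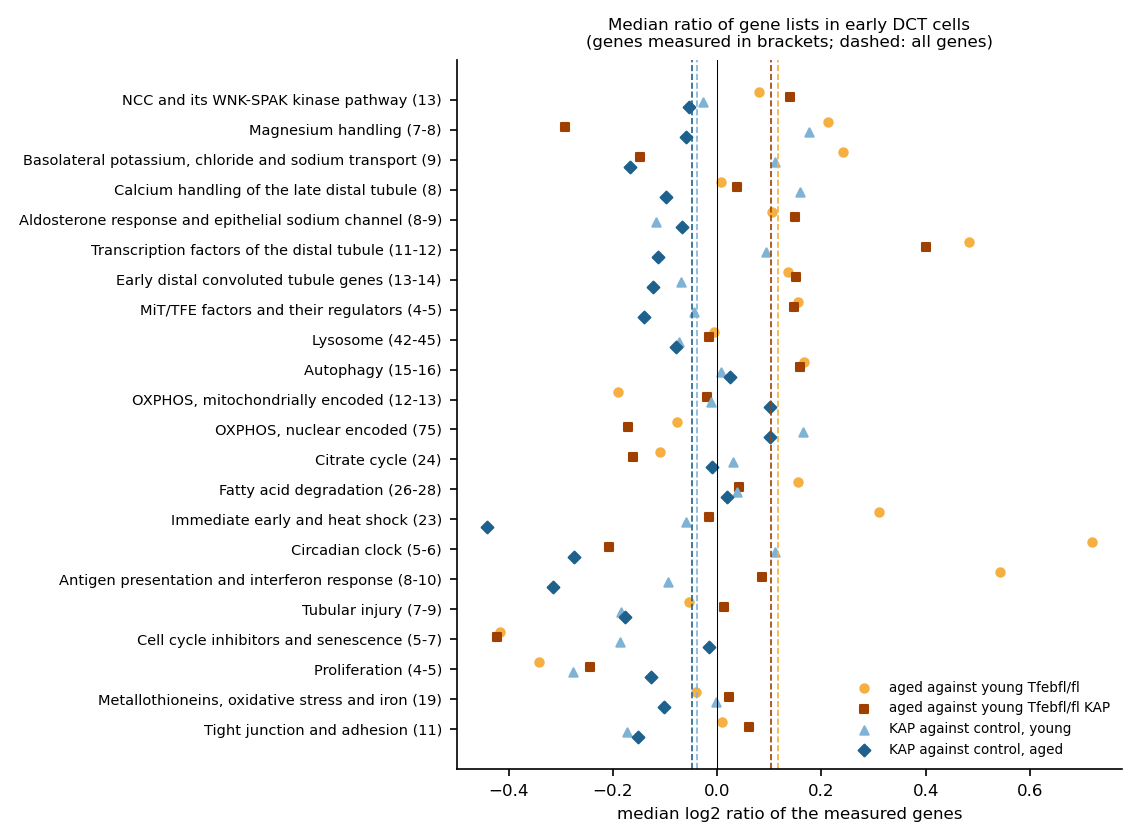
Median log2 ratio of CPM of 22 gene lists in early DCT cells for the 4 comparisons (number of measured genes in brackets), with dashed lines at the median of all genes. Transcription factors of the distal tubule lay at 0.484 and 0.401 for age, and nuclear genes of oxidative phosphorylation below the dashed lines for age and above them for genotype.

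Tfebfl/fl KAP mice were compared with Tfebfl/fl mice at each age, in cells that KAP-Cre does not target. By the same rule of 1.5-fold, 28 of 5202 genes (0.538%) were higher and 118 (2.27%) lower in young mice, and 38 of 5676 (0.669%) were higher and 72 (1.27%) lower in aged mice. The median of all genes was -0.039 and -0.049. TMM factors moved the ratios by 0.079 and 0.029 and took the share of higher genes among those past 1.5-fold from 19.2 to 36.7% in young and from 34.5 to 43.4% in aged mice. In young mice 43 genes were higher and 51 lower without the members that carried markers of another type, and without Scrublet doublets 74 were lower. Fewer genes passed 1.5-fold by genotype than by age in the same cells. Of 5466 genes, both KAP libraries lay above both controls in 8.31% and below in 16.4%, and by at least 1.5-fold in 2 (0.0366%) and 6 (0.11%). The 2 were Cd74 and Hbb-bt, genes of immune and red blood cells, and the 6 were Gm42418, AY036118, Car15, Mgp, Aqp3 and Hsd11b2, which were named after their values were seen. Hbb-bt was at 20.7, 49.8, 0 and 86.8 CPM, and the related globin gene Hbb-bs was found in only 3, 2, 0 and 1 members. Gm42418 and AY036118, which overlap ribosomal RNA sequence, were at 2364, 777, 4182 and 1504 CPM and at 107, 9.73, 179 and 32.4 CPM. Markers of principal cells, to which Aqp3 and Hsd11b2 belong, were also highest in a control library, as given above, and their part in these 2 genes was not tested. Without the members that carried markers of another type, the ratio of Hsd11b2 in young mice was 1.64 in place of -1.04. Hsd11b2 is in the principal cell list but was not in the set of markers that picked these members. Members picked by other principal cell markers were left out, so that its change is not independent of the choice.

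Tfeb itself was at 15.3, 15.9, 20.8 and 20.04 CPM in early DCT cells, below the minimum for a ratio in young mice, and did not separate by genotype. Its relatives Tfe3 and Mitf were at 12.1, 15.5, 16.7 and 14.8 CPM and at 52.6, 51.0, 58.6 and 53.3 CPM. Counts of transcript 3′ ends do not show whether the floxed part of Tfeb was present. Of the 44 measured lysosome genes of 68 listed, both KAP libraries were below both controls in 17 and above in 1 (Man2b1), with medians of -0.074 and -0.079, but 5 were below and 4 above under TMM factors. Of all genes 16.4% lay below and 8.31% above by total UMIs, with medians of -0.039 and -0.049. Under TMM factors 11.7% of all genes lay below and 12.1% above, near the list's 5 and 4 of 44. The list's median in aged mice was -0.205 in cells with at most 20% mitochondrial UMIs and -0.235 with cells thinned to 2000 UMIs. Lgmn, a lysosomal protease, was at 127, 87.6, 113 and 94.4 CPM, and Lamp2 at 279, 241, 270 and 220 CPM. Ctsb (376, 388, 408 and 363 CPM) and Lamp1 (556, 574, 555 and 542 CPM) overlapped between genotypes. Of 16 measured autophagy genes, 1 lay above and 1 below by genotype. Under TMM factors 6 lay above and 1 below, where 12.1% of all genes lay above and 11.7% below.

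Nuclear genes of oxidative phosphorylation differed by genotype in the direction opposite to age, in comparisons that share their libraries. Both KAP libraries were above both controls in 39 of 75 genes and below in none, with medians of 0.165 in young and 0.101 in aged mice, where 8.31% of all genes lay above and 16.4% below. Under TMM factors 27 lay above and none below, where 12.1% of all genes lay above and 11.7% below. Atp5k was at 752, 1028, 703 and 875 CPM, Uqcrq, a subunit of complex III, at 1308, 1789, 1361 and 1576 CPM and Ndufa3, a subunit of complex I, at 330, 452, 368 and 439 CPM. None passed 1.5-fold. Not every subunit followed, since Ndufa4 was at 4789, 4545, 3367 and 3432 CPM. With cells of at most 20% mitochondrial UMIs alone, the list's median was 0.264 in young and 0.034 in aged mice.

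Abca13, a lipid transporter among the 15 genes highest in early DCT cells, was at least 1.5-fold lower in KAP than in control mice at both ages. It was at 1266, 797, 1639 and 897 CPM, with log2 ratios of -0.67 in young and -0.87 in aged mice. Both KAP libraries lay below both controls. Late DCT cells (748, 313, 1000 and 526 CPM) and thick ascending limb cells (473, 220, 581 and 293 CPM) had the same order. Klk1 was higher in KAP in young mice (1298 against 2491 CPM) and about equal in aged mice (1920 against 1881 CPM).

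As a list, immediate early and heat shock genes were lower in aged Tfebfl/fl KAP than in aged Tfebfl/fl mice. Of 23 immediate early and heat shock genes, all measured, 10 were at least 1.5-fold lower in aged Tfebfl/fl KAP than in aged Tfebfl/fl mice, with a median of -0.442, where 1.27% of all genes were lower by that rule. In young mice the median was -0.059. Fos was at 1572, 1519, 2448 and 1303 CPM, Egr1 at 738, 640, 938 and 456 CPM, Klf6 at 208, 200, 380 and 175 CPM and Nr4a1 at 99.9, 118, 168 and 64.3 CPM. In each of the 4 genes aged Tfebfl/fl was the highest and aged Tfebfl/fl KAP the lowest library. Leaving out the members that carried markers of another type gave a median of -0.442 in aged mice too but 0.158 in young mice, and with at most 20% mitochondrial UMIs it was -0.292 in young mice. Ier5, immediate early response 5, went the other way, at 64.1, 47.5, 25.8 and 101 CPM. Its log2 ratio of 1.96 in aged mice was the highest among genes with a mean of at least 50 CPM. Other cell types are not given here, and the part of the handling of single libraries was not tested.

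A set of the most extreme ratios sat in few cells. Podxl, a podocyte gene, was at 99.7, 25.2, 16.3 and 30.2 CPM, and 5 cells held 78% of its UMIs in young Tfebfl/fl mice. Its age ratio in Tfebfl/fl mice was -2.61 and became 0.68 without the members that carried markers of another type, an alternative chosen after the data had been seen. Podxl is itself one of the podocyte markers that picked these members, so that its change follows from the choice. By the same step Sparc went from -2.39 to -0.78, Klf4 from -1.39 to 0.10, Tm4sf1 from -1.34 to -0.00 and Slc6a6 from -1.19 to -0.04. Cryab, a small heat shock protein, was at 134, 201, 52.3 and 50.4 CPM with ratios of -1.35 and -1.997, which became -0.37 and -1.11. The same step left Pigr at 2.35 and 2.33, Klhl3 at 0.73 and 0.62, Kl at -0.77 and -0.76, Gpx6 at -1.82 and -1.28 and Lhx1 at 0.72 and 1.02. Each of these 5 genes and Pvalb kept its direction and stayed past 1.5-fold in both genotypes.

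**Figure D5:**
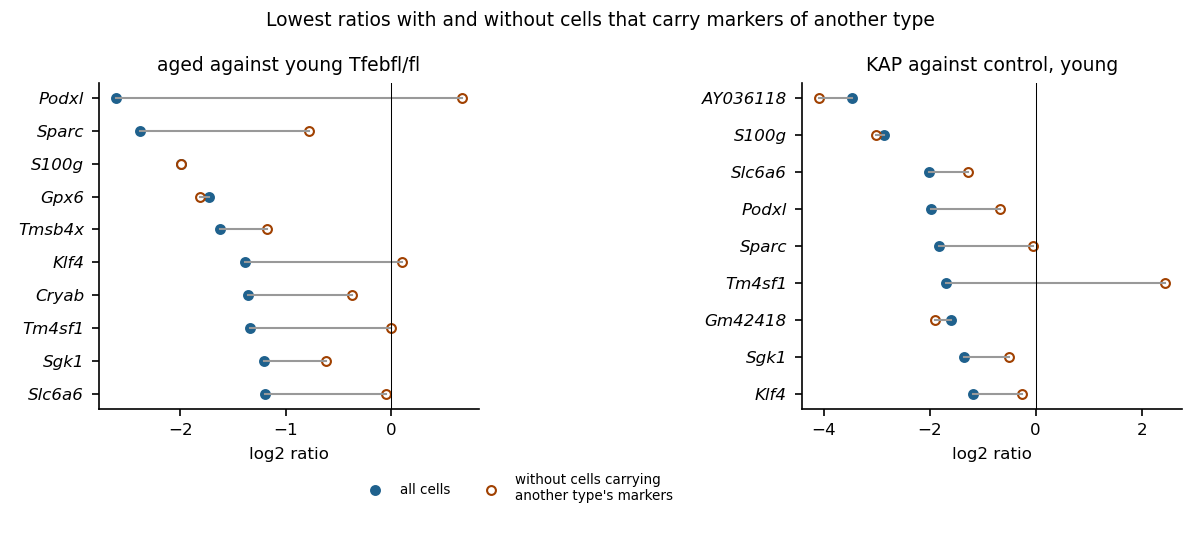
Lowest log2 ratios of CPM in early DCT cells for aged against young Tfebfl/fl mice and for KAP against control in young mice, with all cells (filled points) and without cells that carry markers of another type (open points). Podxl moved from -2.61 to 0.68 in the age comparison, and Gpx6 from -1.73 to -1.82.

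Early DCT cells were last set beside the neighbouring segments, which the rule parted by the same genes, so that the counts are descriptions. With a log2 ratio of at least 1 in each of the 4 libraries, 59 of 5211 genes (1.13%) were higher and 37 (0.71%) lower in early than in late DCT cells. Higher were Pigr (2.36 to 5.25), Gpx6, Egf (1.64 to 2.98) and Pvalb (1.57 to 2.72), with Erbb4 and Sox9, and lower were Klk1 (-3.65 to -3.26), Calb1 (-2.90 to -2.44), Kl (-1.71 to -1.38), Slc8a1, Vdr and Clu. Against thick ascending limb cells 133 of 5552 genes (2.4%) were higher, among them Calb1, Lhx1, Pvalb, Trpm6 and Emx1, and 161 (2.9%) lower, among them Cldn10 and Egf (-2.41 to -1.23). Against connecting tubule cells 150 of 5851 genes (2.56%) were higher, among them Pvalb, Egf, Uroc1 and Pigr, and 327 (5.59%) lower, among them Hsd11b2, Scnn1b, Klk1 and Aqp2. Egf thus lay between the thick ascending limb, where it was higher, and the late DCT, where it was lower. Late DCT cells were 49.1, 29.3, 37.8 and 35.9% of early and late DCT cells together, and were most frequent in the library with the lightest background correction of S100g, the gene that parts them, so that this share is not read as a difference in cells.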

How the data were processed

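The measurements are UMI counts per gene and barcode from 3′ single-cell libraries of mouse renal cortex, 1 library per condition. Per the submitters' processing notes, the authors made the deposited counts with Cell Ranger (version 6.0.0) on mm10 and also used Seurat (version 4.4.0). The files hold whole numbers after removal of background RNA by SoupX. The correction and the pooling of mice can change levels between libraries. Groups came from the labels of the samples. Members and gene lists were chosen with earlier results of these data known.

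Cells were picked by the rule given above in Python 3.11.15 with pandas 2.3.3, numpy 2.4.6 and scipy 1.17.1, and figures were drawn with matplotlib 3.10.9. Counts were summed over members of a library and divided by their total (CPM). Intervals were exact (Poisson for CPM, Clopper-Pearson for shares, conditional binomial for ratios) at 95%. Genes needed a mean of 20 CPM over the libraries compared. No test was made, and edgeR 4.0.16 (R 4.3.3) served for TMM factors only. Genes were named if they were members of a list, among the 10 highest or lowest log2 ratios of a comparison with a mean of at least 50 CPM, among the 15 highest or lowest with age by the smaller of the 2 ratios, or among the 15 highest over other kept barcodes. Alternatives were other limits of the rule, Scrublet doublets removed (scanpy 1.11.5), thinning to 2000 UMIs, other scalings and other minimum levels. Late DCT cells failed only the S100g limit, thick ascending limb cells passed all but the Slc12a3 and Slc12a1 plus Umod limits, connecting tubule cells all but the Slc12a3 and S100g limits, and proximal tubule cells all but the Slc12a3 and Slc34a1 limits. The scripts were tested on simulated data. Gene positions came from GENCODE vM21 and promoter sequences from RefSeq. Some genes are not reported here.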

Additional observations from a re-analysis of the deposited data

Results flagged for a closer look

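In early DCT cells, 20 of 5238 genes passed 1.5-fold with age in opposite directions in the 2 genotypes, and 10 of them were named genes or members of a gene list. The value given for each is the log2 age ratio in Tfebfl/fl KAP mice minus that in Tfebfl/fl mice, and with 1 library per condition none of these differences was tested. Higher with age in Tfebfl/fl and lower in Tfebfl/fl KAP mice were Bhlhe40 (-1.51, from 0.76 and -0.76), a repressor of the circadian clock, Nr4a1 (-1.63, from 0.75 and -0.88), an immediate early nuclear receptor, and Cldn10 (-1.43, from 0.70 and -0.73), a claudin of the thick ascending limb. Without the members that carried markers of another type these ratios were 0.79 and -0.82 for Bhlhe40, 1.13 and -1.02 for Nr4a1 and 0.77 and -0.83 for Cldn10.

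Lower with age in Tfebfl/fl and higher in Tfebfl/fl KAP mice were Sgk1 (2.35, from -1.20 and 1.15), Ier5 (2.40, from -1.31 and 1.08), Cdkn1a (1.46, from -0.84 and 0.62), Plat (2.89, from -1.03 and 1.86), Slc6a6 (2.08, from -1.19 and 0.89) and Tm4sf1 (2.26, from -1.34 and 0.92). Without the members that carried markers of another type, Sgk1 was at -0.62 and 1.38 and Ier5 at -0.82 and 1.23, but Plat at -0.32 and -0.18, Slc6a6 at -0.04 and 0.37, Cdkn1a at -0.34 and 0.61 and Tm4sf1 at -0.00 and -1.16. S100g (2.59, from -1.99 and 0.60) was a gene of the rule and was set to 0 in different shares of the members by the background correction.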

How the results depend on the processing

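No paired analysis was possible because each condition has 1 library and the labels give no replicate numbers, and for the same reason no replicate could be left out. Counts below are of genes past 1.5-fold, named by comparison. Shares of early DCT cells are of the kept barcodes.

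With mean CP10k over cells, 122 genes were higher in both aged libraries, 576 higher with age in Tfebfl/fl KAP mice and 101 higher in aged KAP mice. The list median of nuclear oxidative phosphorylation genes was -0.247 for age in Tfebfl/fl KAP mice and 0.0571 for genotype in aged mice. In young KAP against control Aqp2 was 0.19 and Fxyd4 0.12, and Plat was 0.20 with age in Tfebfl/fl mice, all reversed.

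With cells thinned to 2000 UMIs, 887 genes were higher and 296 lower with age in Tfebfl/fl mice, 878 and 223 in Tfebfl/fl KAP mice, 318 and 385 by genotype in young mice, 310 and 321 in aged mice, 164 were higher in both aged libraries, and 39 were higher than in late DCT cells. The list median of oxidative phosphorylation was -0.254 for age in Tfebfl/fl KAP mice and 0.0746 for genotype in aged mice, and that of the lysosome -0.235 for genotype in aged mice. Reversed were Aqp2 (0.60), Fxyd4 (0.89) and Hsd11b2 (0.60) for genotype in young mice, Fxyd4 (0.84) and Plat (0.43) with age in Tfebfl/fl and S100g (-0.083) with age in Tfebfl/fl KAP mice.

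With TMM factors, 23 genes were higher and 60 lower in both aged libraries, 51 were higher in young KAP mice and 39 higher than in late DCT cells, beside the counts given in the report (187 and 221, 141 and 182). List medians with age in Tfebfl/fl and Tfebfl/fl KAP mice were -0.201 and -0.345 for oxidative phosphorylation, -0.235 and -0.337 for the citrate cycle and -0.133 and -0.191 for the lysosome, and -0.0340 for NCC and its kinases in Tfebfl/fl KAP mice. Oxidative phosphorylation was 0.244 in young and 0.129 in aged KAP against control. With totals without mitochondrial genes, 220 genes were lower with age in Tfebfl/fl mice, 199 lower in young KAP and 64 higher in aged KAP mice.

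With a minimum of 50 CPM, 136 genes were higher and 51 lower with age in Tfebfl/fl mice, 104 and 41 in Tfebfl/fl KAP mice, 7 and 29 by genotype in young and 12 and 31 in aged mice, and 36 and 13 in both aged libraries. With no minimum these were 2772 and 1729, 3088 and 1161, 1227 and 2343, 1644 and 1642, and 674 and 283. Both follow from the number of genes tested.

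With at most 20% mitochondrial UMIs, early DCT cells were 2.73, 3.44, 5.28 and 5.74% of kept barcodes. Then 478 genes were lower with age in Tfebfl/fl mice, 701 higher and 173 lower in Tfebfl/fl KAP mice, 116 higher and 566 lower by genotype in young and 278 and 129 in aged mice, and 37 were higher than in late DCT cells. List medians of oxidative phosphorylation were -0.323 with age in Tfebfl/fl KAP mice and 0.264 and 0.0343 by genotype, those of the lysosome -0.175 with age in Tfebfl/fl KAP and -0.205 by genotype in aged mice, and those of immediate early genes -0.256 with age in Tfebfl/fl and -0.292 by genotype in young mice. Gm42418 was reversed at -0.18 with age in Tfebfl/fl KAP mice.

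With Slc12a1 plus Umod under 20 CP10k, the shares were 2.36, 2.98, 4.72 and 5.34%, 55 genes were higher and 245 lower by genotype in young and 68 higher in aged mice. The median of immediate early genes was 0.125 with age in Tfebfl/fl mice and that of oxidative phosphorylation 0.238 by genotype in young mice, and S100g was reversed at -0.11 with age in Tfebfl/fl KAP mice. With S100g under 5 CP10k the share in young Tfebfl/fl mice was 3.43%. With Slc12a3 of at least 10 CP10k, reversed were Aqp2 (0.54), Fxyd4 (0.82), Hsd11b2 (0.60) and Cryab (-0.062) by genotype in young and Fxyd4 (0.59) in aged mice. Without Scrublet doublets, 74 genes were lower by genotype in young mice, and Aqp2 (0.042) and Fxyd4 (0.11) were reversed with age in Tfebfl/fl KAP mice.

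Without the members that carried markers of another type, an alternative chosen after seeing the data, the share in young Tfebfl/fl mice was 3.50%, and 43 genes were higher and 51 lower by genotype in young mice. Medians of immediate early genes were 0.718 with age in Tfebfl/fl and 0.158 by genotype in young mice. Reversed were Aqp2 (1.44), Klf4 (0.10) and Podxl (0.68) with age in Tfebfl/fl, Fxyd4 (0.33), Plat (-0.18) and Tm4sf1 (-1.16) with age in Tfebfl/fl KAP, Aqp2 (2.42), Hsd11b2 (1.64), Plat (0.23) and Tm4sf1 (2.44) by genotype in young and Fxyd4 (1.01) in aged mice.

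The cause of these changes was not tested unless given. The other 311 counts, shares and list medians were within their limits of 1.5 times or of the interval, and of the ratios of single genes 1442 stayed past 1.5-fold, 177 fell below it and 29 reversed. Depth limits genes under about 20 CPM, and a single library per condition limits every comparison, since no value covers the spread between mice.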

Other observations

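Genes of antigen presentation and the interferon response were a further group measured in early DCT cells. Of 28 listed, 8 were measured over the 4 libraries, with both aged libraries above both young ones in 4, near the 41.9% of all genes, and below in none, also under TMM factors. H2-D1 was at 93.5, 76.6, 152 and 134 CPM (young Tfebfl/fl, young Tfebfl/fl KAP, aged Tfebfl/fl, aged Tfebfl/fl KAP), H2-K1 at 214, 220, 331 and 285 CPM, B2m, the light chain of both class I molecules, at 59.0, 41.7, 86.0 and 75.4 CPM and Ifi27, an interferon-induced gene, at 64.3, 59.8, 99.4 and 88.7 CPM. The list's median was 0.543 in Tfebfl/fl and 0.086 in Tfebfl/fl KAP mice, and -0.088 in the latter under TMM factors. With totals that leave out mitochondrial genes, 14 were measured, 4 above and 2 below, and the medians were 0.327 and -0.223. The immune marker list, given in the report, was lowest in the aged Tfebfl/fl library.

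Of 19 listed clock genes, 5 were measured over the 4 libraries, with Nr1d1, Usp2 and Clock above and Arntl below with age, against 41.9% and 15.8% of all genes (2 above and 1 below of 6 under TMM factors), and the list's medians of 0.718 in Tfebfl/fl and -0.207 in Tfebfl/fl KAP mice differed in sign. Nr1d1 was at 20.5, 17.7, 32.8 and 31.5 CPM (0.68 and 0.83), Clock at 47.1, 50.8, 65.0 and 53.7 CPM, and Arntl was at 29.0, 27.4, 17.4 and 19.5 CPM (-0.74 and -0.49). The hour at which kidneys were taken was not known here, and its part in these values was not tested. Of 7 measured genes of cell cycle inhibition and senescence, 5 lay below and 1, Cdkn1b, above with age, with medians of -0.417 and -0.422, and of 5 measured proliferation genes 3 lay below and none above. Of all genes 15.8% lay below by total UMIs and 32.7% under TMM factors, where 5 senescence and 4 proliferation genes lay below. Stmn1 was at 59.9, 36.7, 16.3 and 6.39 CPM. Without the members that carried markers of another type, the senescence list had 5 measured genes, 2 below and 1 above.

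Of 19 measured genes of metallothioneins, oxidative stress and iron, 8 lay above, near the 41.9% of all genes, and 7 below with age, and 5 above and 9 below under TMM factors. Gclc, the catalytic subunit of glutathione synthesis, was at 217, 213, 368 and 322 CPM (0.76 and 0.59), and Flvcr1, a heme exporter, at 44.5, 42.7, 82.0 and 82.9 CPM (0.88 and 0.96). Clu, clusterin, was at 786, 1148, 1431 and 1343 CPM. Of 11 measured genes of tight junctions and adhesion, 5 lay below by genotype and none above, where 16.4% of all genes lay below. Under TMM factors 3 lay below, where 11.7% of all genes lay below.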
